A study of Homo sapiens with 15 samples.

Results

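The hypoxia and glycolysis genes are 40 genes of 60649 in the count tables, chosen by a list of symbols and found by symbol. They hold the HIF subunits and prolyl hydroxylases, HIF target genes, glucose and lactate transporters, the enzymes of glycolysis and genes of the pyruvate branch. The study measured poly(A) RNA in HSC5 cells, a human line from a skin squamous cell carcinoma, to ask what PRMT5 and WDR77 regulate. There were 15 libraries in 5 groups of 3 replicates. The control sgNeg carried the WT genotype, sgPRMT5-1 and sgPRMT5-2 the PRMT5 knockout, and sgWDR77-1 and sgWDR77-2 the WDR77 knockout. All 5 groups have neomycin as their labelled treatment and come from 1 line. The 6 libraries of both PRMT5 sgRNAs are called PRMT5KO and the 6 of both WDR77 sgRNAs WDR77KO. The main tests of these pooled groups had no term for the sgRNA, so all libraries of a knockout counted as independent replicates. Their errors and p therefore speak for these libraries and not for other sgRNAs of the same gene. Each library held 5146711 to 6730428 counts on genes.

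Cells sense oxygen through the hypoxia inducible factors (HIF). In oxygen, prolyl hydroxylases mark the alpha subunits HIF1A and EPAS1 for destruction, and when oxygen is low these subunits pair with ARNT and switch on target genes at a short DNA element. Many targets encode glucose transporters and glycolytic enzymes, and carcinoma cells often use glycolysis even when oxygen is present. PRMT5 methylates arginines in histones and other proteins, and WDR77 is its partner in the complex.

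Levels are given as normalized CPM, the counts of a gene per 1000000 counts of its library, with the total corrected by a factor for composition. A gene is called higher or lower where its adjusted p in the limma voom fit over all genes was at most 0.05. Where the libraries of a called gene did not overlap, this describes the call and is no further support for it. The share of all genes without overlap was not computed. Errors of log2 fold changes are standard errors (SE), and errors of levels are standard deviations (SD, n = 3).

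The transcripts that the sgRNAs target were examined first. PRMT5 stood at 59.1, 49.6 and 67.8 CPM in sgNeg, 33.0, 35.8 and 41.4 with sgPRMT5-1, and 44.1, 44.5 and 39.4 with sgPRMT5-2. All 6 PRMT5KO libraries lay below all 3 of sgNeg, and the log2 fold change was -0.57 (SE 0.12, adjusted p 0.00874). WDR77 stood at 125, 114 and 119 CPM in sgNeg, 30.8, 52.0 and 53.3 with sgWDR77-1, and 26.6, 24.9 and 22.0 with sgWDR77-2. Here too the groups did not overlap, with a log2 fold change of -1.86 (SE 0.22, adjusted p 9.00e-05). Of the WDR77 exon bases, 25.1% overlap another gene on the same strand. Neither gene was called in the other knockout, where PRMT5 moved by 0.12 and WDR77 by 0.11 on the log2 scale. Transcripts of both target genes thus remained, and protein was not measured in these libraries. In separate Western blots, also of HSC5 cells with these sgRNAs, the study reported less of both proteins when either gene was depleted.

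The squamous label was checked with 7 markers. KRT17, SFN, TP63, KRT5 and DSG3 were above 25 CPM in all 15 libraries, whereas KRT14, a basal keratin, lay at 0.169 to 0.739 CPM. The summed level of the 7 markers was 2218, 2271 and 2700 CPM in sgNeg and 1748 to 2595 CPM in the other libraries. KRT5, another basal keratin, fell from 512 to 817 CPM in sgNeg to between 33.8 and 335 CPM in the 12 knockout libraries. KRT6A fell too, from 16.3 to 30.8 CPM in sgNeg to 0.777 to 9.17 CPM in the knockouts, as did DSG3, from 50.1 to 58.6 CPM to 25.9 to 45.1 CPM. KRT17 went the other way with sgWDR77-2 (1419.5 to 1453 CPM, against 760.3 to 889.9 in sgNeg), as did SFN in PRMT5KO (608 to 710 CPM, against 451 to 548) and with sgWDR77-2 (608 to 695 CPM). TP63 was higher with sgWDR77-1 (385 to 528 CPM, against 339 to 355 in sgNeg), while its range overlapped sgNeg in the other groups. Of markers of other cell types, the leukocyte genes summed to at most 0.493 CPM, the 5 fibroblast genes to 6.68 to 16.2 CPM and the 3 melanocyte genes to 2.55 to 7.48 CPM. COL1A1 (6.53 to 15.1 CPM) and PMEL (0.680 to 5.66 CPM) were found in all 15 libraries, while COL1A2, CD3E and TYR were at 0 in each. In bulk RNA, fewer cells of a type and less RNA per cell cannot be told apart.

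Some libraries stood apart from their group mates, most of all sgWDR77-1 replicate 1. In sgWDR77-1, replicate 1 differed from replicates 2 and 3 by 13.7 and 19.4 times what counting noise alone would give (chi-square over its degrees of freedom), while those 2 differed from each other by 3.42. In sgNeg, replicate 2 differed from its mates by 9.94 and 6.96, against 4.11 between them. Replicate 3 of sgPRMT5-1 (6.50 and 5.78 against 2.10) and replicate 1 of sgWDR77-2 (5.34 and 7.33 against 2.11) also stood apart. The sgNeg replicate 2 library had the highest share of reads outside annotated features, 7.16% against 2.84% and 3.56% in its group. It also had 2.54% of counts on mitochondrial genes, and it was the lowest sgNeg library for 29 of 39 members.

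Of the 40 members, 39 passed the filter on low counts in each comparison. CA12, a carbonic anhydrase, had 0 CPM in 14 libraries and 0.153 CPM in sgPRMT5-1 replicate 1, and was not tested. Across the 6 comparisons with sgNeg, which share the same 3 control libraries, 27 of 39 members (69.2%) were called at least once and 12 in none, against 40.4% of all genes called at least once. With both PRMT5 sgRNAs 9 members were called (23.1%), against 3.73% of all genes. These were all 9 of the calls with sgPRMT5-1. Without sgPRMT5-1 replicate 2 that number was 0, while all genes called with sgPRMT5-1 went from 530 to 211. All genes tested include many with low counts, and the shares were not matched for level. With all 4 sgRNAs only SLC2A3 was called (2.56%), against 0.659% of all genes.

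**Figure D1:**
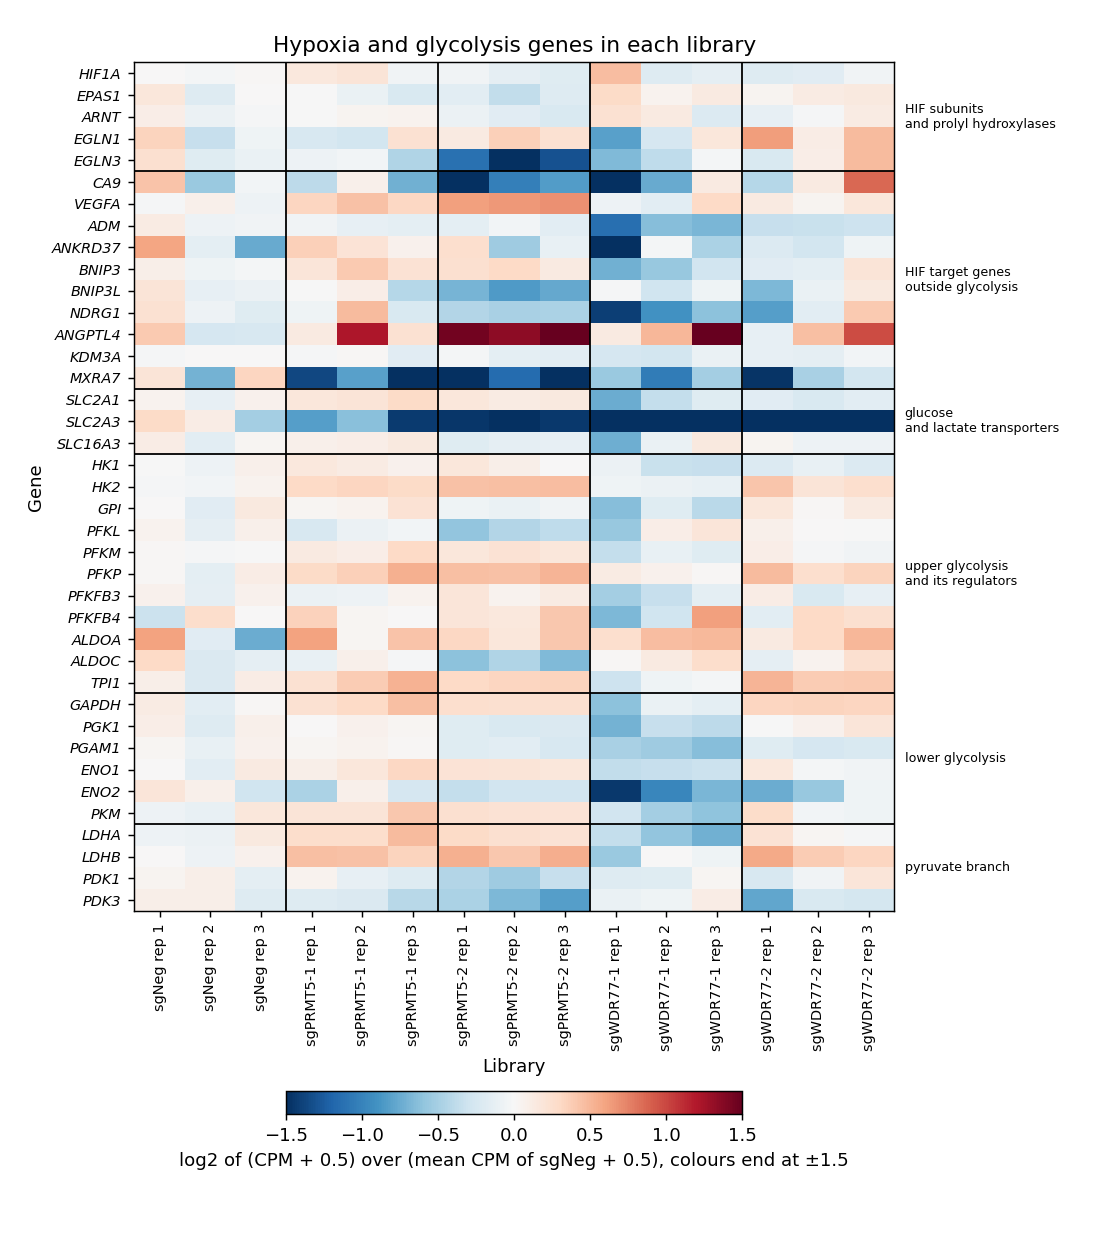
Level of each of the 39 tested members in each of the 15 libraries, as log2 of CPM plus 0.5 over the sgNeg mean plus 0.5, with colours ending at ±1.5. SLC2A3 is below the sgNeg mean in all 12 knockout libraries, and HK2 is above it in all 6 PRMT5KO libraries.

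Compared per kilobase of exon, the most abundant members in sgNeg were glycolytic enzymes. GAPDH, which oxidizes glyceraldehyde phosphate, stood at 1675 ± 164 CPM per kilobase. ENO1, the main enolase, and TPI1, the triose phosphate isomerase, followed at 430 ± 42.4 and 380 ± 46.4, within their spread of each other. PKM, the last step to pyruvate, stood at 300.3 ± 33.1. PGK1, HIF1A and LDHA lay together at 117 ± 12.8, 108 ± 1.75 and 107 ± 9.93. SLC2A3, the transporter with the largest changes, was near the bottom at 1.77 ± 0.491, against 77.3 ± 5.49 for SLC2A1, the most abundant transporter. ALDOA, usually an abundant aldolase, stood at only 4.35 to 11.9 CPM in the 15 libraries. In its case 42.8% of exon bases overlap another protein coding gene on the same strand, and reads there would count as ambiguous. The same overlap is 55.8% for EGLN1 and 33.4% for LDHB, so levels of these 3 genes may be understated.

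The HIF element has the core letters ACGTG or GCGTG, and these were searched on both strands in the 250 bases before each RefSeq start (GRCh38.p14). Of the 40 members, 36 had a promoter in the table. SLC2A3, VEGFA, BNIP3L and NDRG1 had none and were not searched, so the shares leave out the member with the deepest change. At least 1 match lay in some promoter of 30 of these 36 genes (83.3%), against 47.4% of all 27305 genes. Members also had more listed promoters, 1.83 per gene against 1.29. Per promoter the share was 60.6% of 66 against 43.2% of 35116. ACGTG alone was in 36.4% of member promoters against 18.5% of all, and GCGTG in 34.8% against 32.2%. Both cores hold the letters CG, and neither base composition nor expression was matched between members and all genes. A match is a description of the letters and not of HIF binding, which was not measured. The sequences of 5 promoters are shown, chosen after their values were seen: LDHA and GAPDH because both rose with both PRMT5 sgRNAs, and CA9, ALDOC and EGLN3 because they fell with sgPRMT5-2. For each gene it is the promoter with the most matches. Those of GAPDH and EGLN3 lie inside the gene by GENCODE 44, whose outermost starts are chr12:6534512 and chr14:34462774. Only 1 promoter was listed for GAPDH and 1 for EGLN3, so the bases before these outermost starts were not searched. Capitals mark matches on either strand, so that CACGTG, its own reverse complement, holds 2 overlapping matches. LDHA had 5 matches (chr11:18394313-18394562, plus strand), GAPDH 2 (chr12:6535014-6535263, plus strand), CA9 1 (chr9:35673678-35673927, plus strand), ALDOC 5 (chr17:28576896-28577145, minus strand) and EGLN3 0 (chr14:33951075-33951324, minus strand).
LDHA: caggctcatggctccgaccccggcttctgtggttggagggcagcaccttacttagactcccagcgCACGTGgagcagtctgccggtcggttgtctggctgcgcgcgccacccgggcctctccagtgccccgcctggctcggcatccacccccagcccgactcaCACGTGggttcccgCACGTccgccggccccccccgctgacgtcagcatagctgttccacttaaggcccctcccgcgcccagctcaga
GAPDH: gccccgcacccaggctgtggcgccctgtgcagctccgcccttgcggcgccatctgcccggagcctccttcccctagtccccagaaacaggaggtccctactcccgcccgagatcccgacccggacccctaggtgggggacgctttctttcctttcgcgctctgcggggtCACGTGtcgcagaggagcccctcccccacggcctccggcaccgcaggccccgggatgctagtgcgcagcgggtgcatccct
CA9: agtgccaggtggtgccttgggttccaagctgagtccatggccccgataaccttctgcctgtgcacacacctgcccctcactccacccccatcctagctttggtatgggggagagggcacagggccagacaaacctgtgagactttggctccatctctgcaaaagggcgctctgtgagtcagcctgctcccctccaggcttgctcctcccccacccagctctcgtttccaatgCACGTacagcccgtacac
ALDOC: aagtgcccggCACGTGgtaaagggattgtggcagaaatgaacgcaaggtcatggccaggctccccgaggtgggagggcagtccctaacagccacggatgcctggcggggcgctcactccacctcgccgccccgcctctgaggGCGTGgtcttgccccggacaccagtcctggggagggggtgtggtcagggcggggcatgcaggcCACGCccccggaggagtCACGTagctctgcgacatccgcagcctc
EGLN3: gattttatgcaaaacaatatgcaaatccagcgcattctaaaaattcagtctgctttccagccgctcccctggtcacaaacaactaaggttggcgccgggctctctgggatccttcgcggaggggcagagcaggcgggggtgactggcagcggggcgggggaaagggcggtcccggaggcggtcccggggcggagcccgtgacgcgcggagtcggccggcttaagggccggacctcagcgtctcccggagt

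In PRMT5KO against sgNeg, 8 of 39 members were called higher and 3 lower, where 8.73% of all genes tested were higher and 8.3% lower. The glycolytic enzymes HK2, PFKP, TPI1, GAPDH and PKM, both lactate dehydrogenases and VEGFA were higher by 1.18-fold to 1.40-fold. The glucose transporter SLC2A3, the kinase PDK3 and MXRA7 were lower. The share of higher calls, 20.5%, was above that of all genes, and the share of lower calls was close to it. The member median was 0.00 against -0.01 for all genes, over members that moved both ways. The 28 other members ranged from -0.78 for CA9 to 1.02 for ANGPTL4. Without sgNeg replicate 1 the number called was 7, without sgNeg replicate 2 it was 6, and without sgPRMT5-1 replicate 1 it was 17. The number of all genes called moved as well, from 2397 to 483, 673 and 3562 in the same order. The share of these that were higher went from 51.3% to 32.5%, 30.6% and 51.4%.

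In WDR77KO against sgNeg, 0 members were called higher and 1 lower, where 0.838% of all genes tested were higher and 2.55% lower. That gene was SLC2A3, and its fall was the deepest of any member in the 6 comparisons with sgNeg when measured with sgWDR77-1. By limma voom, 8 of 39 members had an unadjusted p under 0.05, against 2274 of 14073 genes. The member median was -0.14 against 0.00 for all genes, and the 38 other members ranged from -0.75 for ENO2 to 0.64 for ANGPTL4. Without sgWDR77-1 replicate 1 the member median was -0.04 and that of all genes 0.02. The number called was 2 without sgWDR77-1 replicate 1, 2 without sgWDR77-2 replicate 3 and 3 without sgWDR77-2 replicate 1, with all genes going from 477 to 677, 346 and 565.

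**Figure D2:**
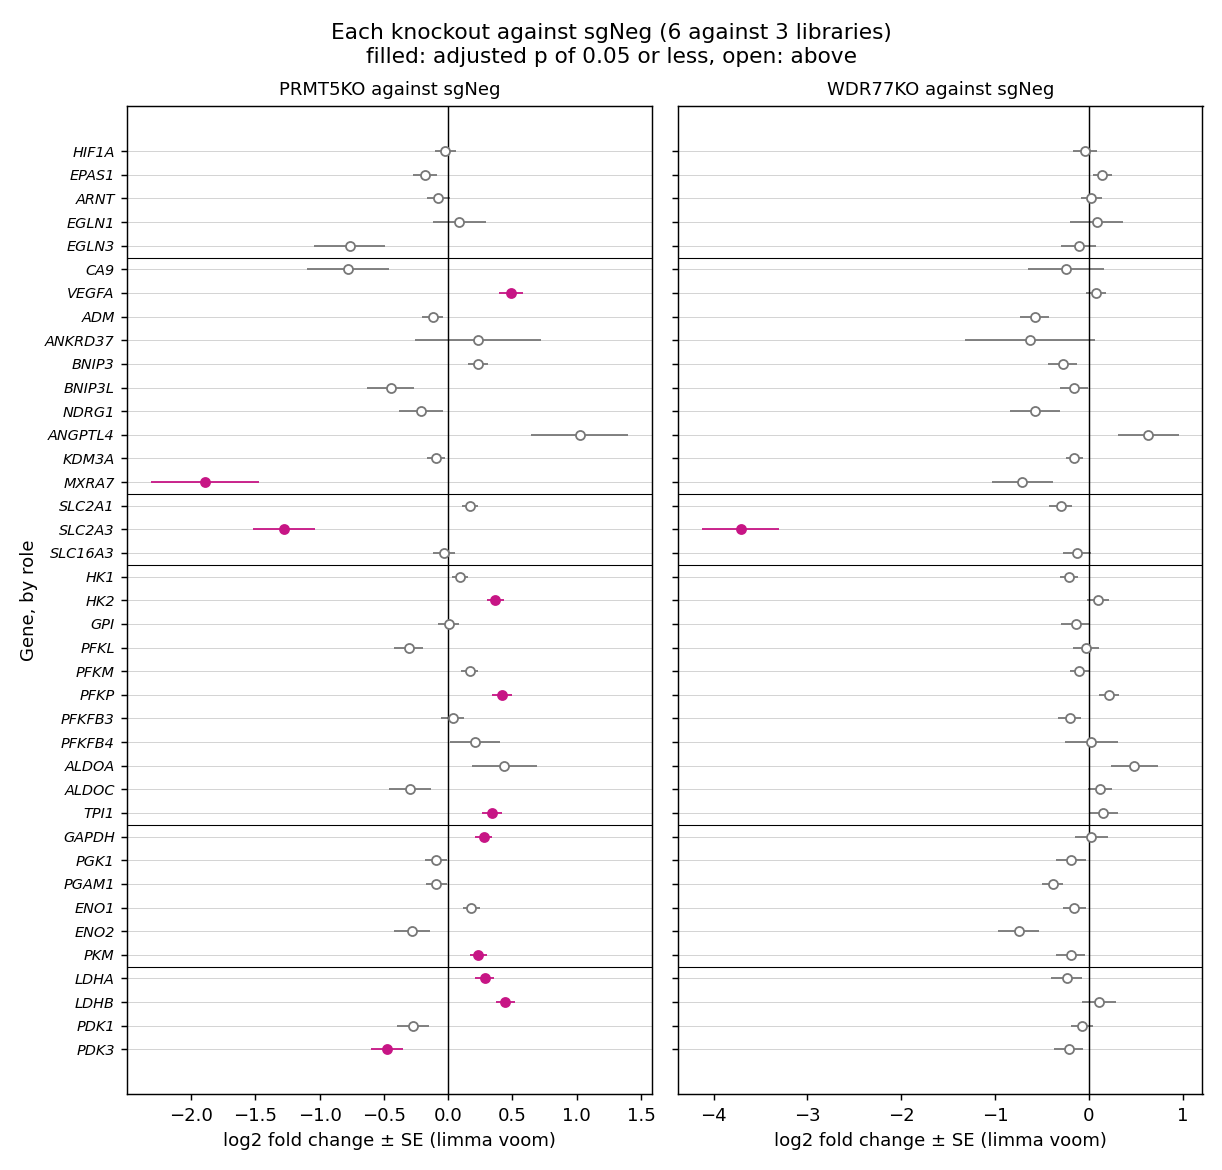
log2 fold change with SE of each tested member in PRMT5KO (left) and WDR77KO (right) against sgNeg, by role, with filled points for adjusted p of at most 0.05. There are 11 filled points on the left and 1, SLC2A3, on the right.

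The sgRNAs of each gene were also compared with sgNeg by themselves, since the pooled groups hide differences between them. With sgPRMT5-1, 7 members were called higher and 2 lower, against 1.52% and 2.24% of all genes. These 9 calls were fragile. The number fell to 0 without sgPRMT5-1 replicate 2, to 2 without sgPRMT5-1 replicate 3, sgNeg replicate 1 or sgNeg replicate 2, and to 4 without sgPRMT5-1 replicate 1. All genes called went from 530 to 211, 296, 241, 372 and 441 in the same order. With sgPRMT5-2, 12 were higher and 13 lower, against 20.9% and 19.3%, and leaving out any library gave 20 to 27 members, with all genes going from 5693 to between 4675 and 5668. With sgWDR77-1, 0 were higher and 6 lower, against 1.04% and 1.67%, while 14 members had an unadjusted p under 0.05, against 2515 of 14202 genes. With sgWDR77-2, 4 were higher and 1 lower, against 1.89% and 3.08%. That count fell to 2 without sgNeg replicate 2 or sgWDR77-2 replicate 2 and to 3 without sgNeg replicate 1, with all genes going from 698 to 430, 293 and 435.

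Among the HIF subunits and prolyl hydroxylases the pooled comparisons with sgNeg gave no call. None of HIF1A, EPAS1, ARNT, EGLN1 and EGLN3 was called in PRMT5KO or WDR77KO against sgNeg by limma voom, where 2397 of 14071 and 477 of 14073 genes tested were. An unadjusted p under 0.05 was found for 1 and 0 of the 5, against 4722 and 2274 of all genes. HIF1A, the oxygen regulated subunit, stood at 545 to 563 CPM in sgNeg and at 486 to 635 CPM in 11 knockout libraries. The other library, sgWDR77-1 replicate 1, held 767 CPM. EGLN3, a hydroxylase that is itself a HIF target, stood at 64.7, 48.0 and 51.0 CPM in sgNeg, 51.6, 53.0 and 39.7 with sgPRMT5-1, and 24.9, 18.0 and 21.8 with sgPRMT5-2. The sgPRMT5-2 libraries were all lower than the 6 others, while sgPRMT5-1 and sgNeg overlapped. Its log2 fold change was -1.34 (SE 0.14, adjusted p 2.62e-07) with sgPRMT5-2 and -0.19 (SE 0.13, adjusted p 0.448) with sgPRMT5-1. Pooled as PRMT5KO it was -0.77 (adjusted p 0.0669), past any other member of this role. The direct difference between these sgRNAs was -1.15 (SE 0.14, adjusted p 4.83e-06). With the WDR77 sgRNAs EGLN3 ranged from 34.4 to 75.8 CPM, around the sgNeg values. EPAS1, the other alpha subunit, was called lower with sgPRMT5-2 at -0.24 (SE 0.09, adjusted p 0.0387), but 2 of 3 libraries overlapped sgNeg. That call was lost without any of 5 libraries, sgNeg replicates 1 and 3 and each of sgPRMT5-2, with an adjusted p of up to 0.235 (without sgPRMT5-2 replicate 2). It was also lost with all 15 libraries in 1 fit.

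HIF target genes outside glycolysis moved in both directions. VEGFA, which encodes the growth factor for blood vessels, stood at 273, 292 and 262 CPM in sgNeg, 344, 374 and 342 with sgPRMT5-1, and 422, 433 and 444 with sgPRMT5-2. Each PRMT5KO library was above each of sgNeg, and those of sgPRMT5-2 were above those of sgPRMT5-1. The log2 fold change in PRMT5KO was 0.49 (SE 0.09, adjusted p 0.00648). The WDR77KO libraries, at 247 to 340 CPM, overlapped sgNeg.

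MXRA7, listed here among the HIF targets, was a low transcript at 5.93, 2.96 and 6.53 CPM in sgNeg, 1.68, 2.72 and 0.856 with sgPRMT5-1, and 0.466, 2.04 and 1.02 with sgPRMT5-2. The PRMT5KO libraries lay below sgNeg, with a narrow gap between sgNeg replicate 2 and sgPRMT5-1 replicate 2. Its log2 fold change was -1.89 (SE 0.42, adjusted p 0.0110), and without sgNeg replicate 1 the adjusted p was 0.0577.

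ANGPTL4, a secreted inhibitor of lipoprotein lipase, stood at 12.9, 8.05 and 8.16 CPM in sgNeg and 27.4, 25.3 and 29.1 with sgPRMT5-2. With sgPRMT5-1 it was at 10.7, 23.1 and 11.5 CPM. Every sgPRMT5-2 library was above every one of those 6, and sgPRMT5-1 overlapped sgNeg. With sgPRMT5-2 the log2 fold change was 1.51 (SE 0.17, adjusted p 9.69e-07), and the direct difference between the PRMT5 sgRNAs was 0.96 (SE 0.19, adjusted p 0.00146).

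CA9, the membrane carbonic anhydrase often used as a hypoxia marker, moved the other way. It stood at 15.7, 7.72 and 11.2 CPM in sgNeg and 3.11, 5.44 and 6.26 with sgPRMT5-2, which lay below. The sgPRMT5-1 libraries, at 8.71, 12.2 and 6.85 CPM, fell within or just under the sgNeg range. The log2 fold change with sgPRMT5-2 was -1.24 (SE 0.29, adjusted p 0.00211).

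BNIP3L, a mitophagy receptor, stood at 141, 113 and 116 CPM in sgNeg and 76.0, 68.3 and 72.1 with sgPRMT5-2, a log2 fold change of -0.77 (SE 0.09, adjusted p 1.42e-06). NDRG1, a stress responsive gene, stood at 634, 513 and 480 CPM in sgNeg, 399, 388 and 390 with sgPRMT5-2 and 204, 289 and 354 with sgWDR77-1. Both sgRNA groups lay wholly below sgNeg in NDRG1, and in BNIP3L all 3 sgPRMT5-2 libraries did. NDRG1 changed by -0.46 (SE 0.08, adjusted p 0.000136) and by -0.94 (SE 0.18, adjusted p 0.0163). The former call was lost with all 15 libraries in 1 fit (adjusted p 0.116). The latter was lost without any 1 sgNeg library (adjusted p up to 0.103). With sgPRMT5-1 and sgWDR77-2 NDRG1 reached 754 and 711 CPM in single libraries, and neither was called. BNIP3, the related receptor, was called higher with sgPRMT5-2 at 0.22 (SE 0.08, adjusted p 0.0313), a call lost without sgNeg replicate 2, sgNeg replicate 3 or sgPRMT5-2 replicate 2 and in 3 other alternatives.

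ADM, which encodes the vasodilator adrenomedullin, was lower with sgWDR77-1. It stood at 57.2, 49.5 and 50.2 CPM in sgNeg, 23.6, 33.3 and 32.3 with sgWDR77-1, and 41.0, 41.3 and 41.9 with sgWDR77-2. All 6 WDR77KO libraries lay below sgNeg. It was called with sgWDR77-1 at -0.80 (SE 0.15, adjusted p 0.0172) but not in WDR77KO, at -0.58 (SE 0.16, adjusted p 0.0548). Without sgWDR77-1 replicate 1 it was called in WDR77KO too, at -0.45 (SE 0.11, adjusted p 0.0307). Its call with sgWDR77-1 was lost without any 1 sgNeg library (adjusted p up to 0.0990). KDM3A and ANKRD37, a histone demethylase and an ankyrin repeat protein, were called in no comparison with sgNeg.

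**Figure D3:**
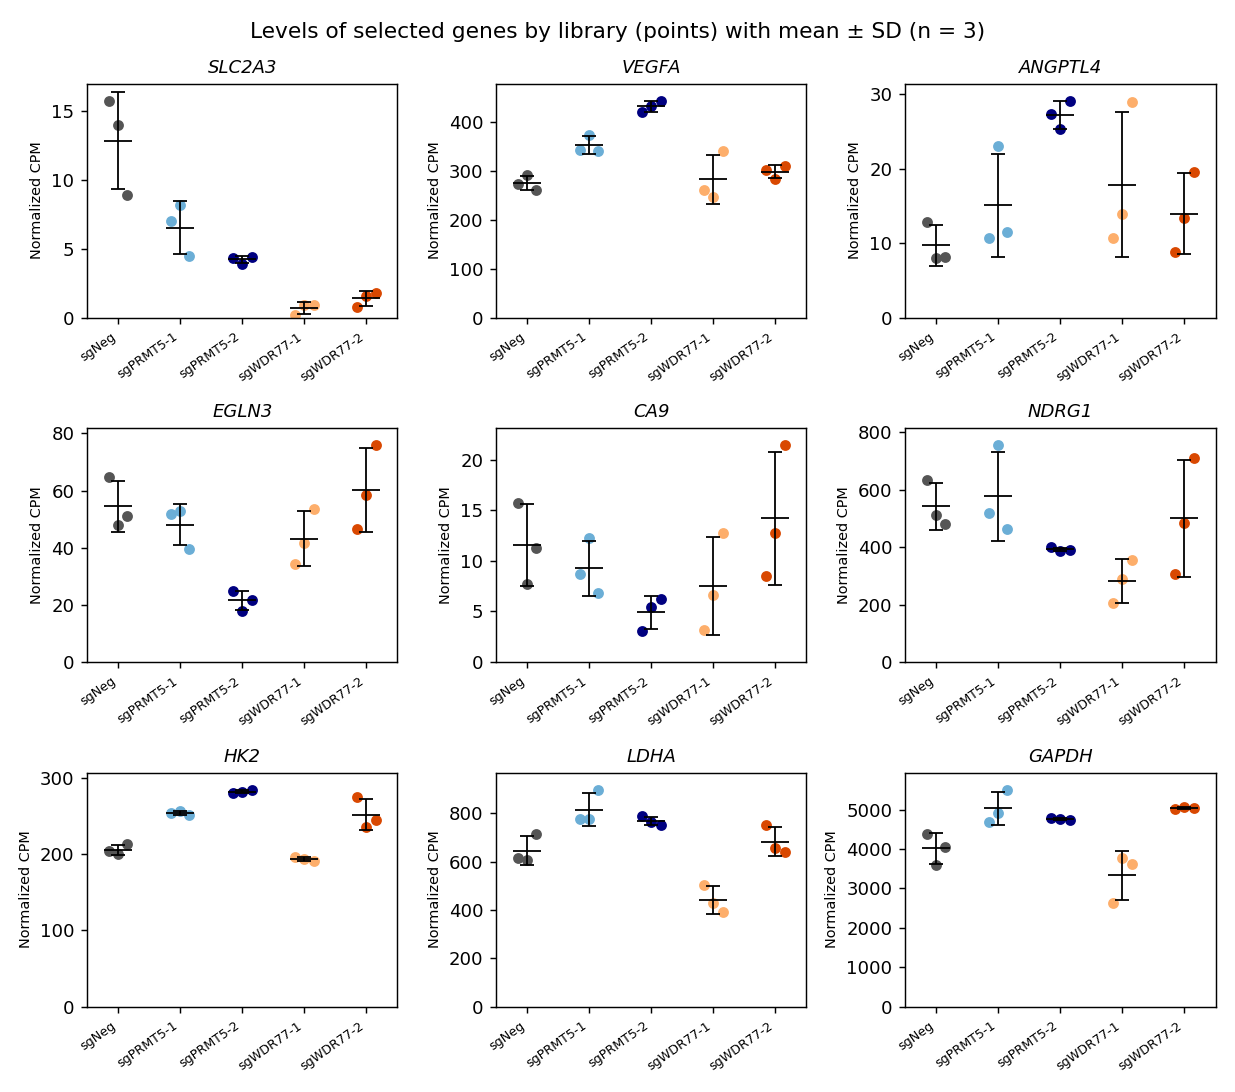
Normalized CPM of 9 members in each library (points) with the mean and SD of each group (n = 3), each panel from 0. SLC2A3 is lowest with the WDR77 sgRNAs, while EGLN3 is lowest with sgPRMT5-2.

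The transporters gave the deepest change. SLC2A3, a high affinity glucose transporter, stood at 15.7, 14.0 and 8.89 CPM in sgNeg, 7.03, 8.15 and 4.45 with sgPRMT5-1, and 4.35, 3.91 and 4.40 with sgPRMT5-2. With sgWDR77-1 it was at 0.185, 0.925 and 0.912 CPM, and with sgWDR77-2 at 0.770, 1.59 and 1.80. Every knockout library was below every sgNeg library, and every WDR77KO library was below every PRMT5KO library. The counts behind it before scaling were 93, 85 and 49 in sgNeg, 1, 5 and 5 with sgWDR77-1, and 4, 9 and 10 with sgWDR77-2. The log2 fold change was -1.28 (SE 0.24, adjusted p 0.00584) in PRMT5KO, a level 2.43-fold lower. In WDR77KO it was -3.71 (SE 0.41, adjusted p 6.93e-05), a level 13.1-fold lower. Between the knockouts the difference itself was 2.45 (SE 0.39, adjusted p 0.00109). These 3 calls held in each alternative and without each library. With sgPRMT5-1 alone the call, at -0.99 (SE 0.26, adjusted p 0.0384), was lost without any of 5 libraries, sgNeg replicates 1 and 2 and each of sgPRMT5-1, with an adjusted p of up to 0.163. SLC2A1, the common glucose transporter, was not called against sgNeg, at 0.17 in PRMT5KO and -0.30 in WDR77KO. Its sgNeg libraries, at 529, 470 and 535 CPM, lay between those of PRMT5KO (559 to 626 CPM) and WDR77KO (305 to 460 CPM), without overlap. SLC16A3, the lactate exporter, stood at 415 to 522 CPM in 14 libraries and at 284 CPM in sgWDR77-1 replicate 1, and it was called in no comparison with sgNeg.

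In upper glycolysis 3 of 11 genes were called higher in PRMT5KO and 0 lower, against 8.73% and 8.3% of all genes. In WDR77KO 0 were called, with 1 at an unadjusted p under 0.05, against 2274 of 14073 genes. HK2, the inducible hexokinase that traps glucose in the cell, stood at 204, 201 and 214 CPM in sgNeg, 254, 258 and 252 with sgPRMT5-1, and 280, 282 and 285 with sgPRMT5-2. The 3 groups did not overlap, and spread within each was small. HK2 rose by a log2 fold change of 0.37 (SE 0.07, adjusted p 0.00563) in PRMT5KO.

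PFKP, the platelet type of phosphofructokinase, stood at 231, 206 and 247 CPM in sgNeg, 278, 292 and 330 with sgPRMT5-1, and 311, 310 and 324 with sgPRMT5-2. All PRMT5KO libraries were above sgNeg, by a log2 fold change of 0.42 (SE 0.08, adjusted p 0.00561). With sgWDR77-2 PFKP was also called, at 0.35 (SE 0.09, adjusted p 0.0358), a call lost without sgNeg replicate 1, sgNeg replicate 2 or any 1 library of sgWDR77-2, and under the replicate block. The liver type PFKL went the other way with sgPRMT5-2, from 140, 124 and 142 CPM in sgNeg to 89.7, 99.4 and 104, at -0.48 (SE 0.08, adjusted p 0.000123). PFKM, the muscle type, rose with sgPRMT5-2 by 0.18 (SE 0.07, adjusted p 0.0427). It lost that call without sgNeg replicate 3 or sgPRMT5-2 replicates 2 or 3 and in 4 other alternatives, among them library totals, where the adjusted p was 0.242.

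TPI1 stood at 1091, 882 and 1107 CPM in sgNeg, 1200, 1335 and 1469 with sgPRMT5-1, and 1267, 1281 and 1294 with sgPRMT5-2. It was higher in all 6 PRMT5KO libraries, by 0.34 (SE 0.08, adjusted p 0.0139), and without sgNeg replicate 2 the adjusted p was 0.0785. With sgWDR77-2 TPI1 was at 1458, 1335 and 1344 CPM, also above sgNeg, by 0.43 (SE 0.09, adjusted p 0.00937). ALDOC, the brain type of aldolase, fell with sgPRMT5-2 from 111, 77.9 and 82.2 CPM in sgNeg to 58.6, 66.0 and 56.9, by -0.57 on the log2 scale (SE 0.11, adjusted p 0.000448). HK1, GPI, PFKFB3, PFKFB4 and ALDOA, which include the constitutive hexokinase and the kinases that set fructose bisphosphate levels, were called in no comparison with sgNeg.

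Pairs of isozymes were set side by side as ratios of their levels per kilobase, with no test. HK2 over HK1 was 1.17 ± 0.0239 in sgNeg, 1.33 ± 0.0394 with sgPRMT5-1, 1.51 ± 0.0977 with sgPRMT5-2, 1.31 ± 0.114 with sgWDR77-1 and 1.62 ± 0.181 with sgWDR77-2. PFKP over PFKL was 1.93 ± 0.0525, 2.76 ± 0.128, 3.71 ± 0.236, 2.24 ± 0.765 and 2.43 ± 0.134 in the same order. All libraries of both PRMT5 sgRNAs and of sgWDR77-2 were above sgNeg in both ratios. In sgWDR77-1, PFKP over PFKL was 3.12, 1.88 and 1.73, so replicate 1 alone lifted the mean, and the 2 others lay below all of sgNeg (1.89 to 1.99). EGLN3 over EGLN1 was 4.43 ± 0.477 in sgNeg and 1.46 ± 0.346 with sgPRMT5-2, the group with the lowest ratio.

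In lower glycolysis 2 of 6 genes, GAPDH and PKM, were called higher in PRMT5KO, against 8.73% of all genes. In WDR77KO 0 were called, with 2 at an unadjusted p under 0.05, against 2274 of 14073 genes. GAPDH stood at 4386, 3604 and 4049 CPM in sgNeg, 4689, 4917 and 5496 with sgPRMT5-1, and 4776, 4757 and 4739 with sgPRMT5-2. The 6 PRMT5KO libraries were above sgNeg, by a log2 fold change of 0.28 (SE 0.07, adjusted p 0.0146). GAPDH is often used as a reference transcript, and it was higher in PRMT5KO under each scaling tried. Its call was lost without sgNeg replicate 2 (adjusted p 0.0878) and without sgNeg replicate 3 (adjusted p 0.0505).

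With the WDR77 sgRNAs GAPDH split, at 2618, 3757 and 3620 CPM with sgWDR77-1 and 5021, 5061 and 5027 with sgWDR77-2. The sgWDR77-2 libraries were all above sgNeg, at 0.33 (SE 0.07, adjusted p 0.0165), while those of sgWDR77-1 overlapped it. Without sgNeg replicate 2, sgNeg replicate 3 or sgWDR77-2 replicate 2 the GAPDH call with sgWDR77-2 was lost, as it was in 3 other alternatives, with an adjusted p of up to 0.0869 over all of them.

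PKM stood at 2449, 2374 and 2898 CPM in sgNeg, 2936, 2947 and 3400 with sgPRMT5-1, and 3030, 3000 and 2971 with sgPRMT5-2. The groups were separated by a gap smaller than their spread, and the log2 fold change was 0.23 (SE 0.07, adjusted p 0.0302). This call was lost under library totals (adjusted p 0.0772), with limma-trend (0.0521) and without sgNeg replicates 1 (0.123) or 2 (0.131) or any 1 library of sgPRMT5-2 (up to 0.0613).

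ENO2, the neuronal enolase, stood at 29.6, 27.6 and 21.0 CPM in sgNeg and 9.24, 13.0 and 16.1 with sgWDR77-1, all lower, at -1.02 (SE 0.22, adjusted p 0.0287). PGAM1, a phosphoglycerate mutase, stood at 156, 142 and 160 CPM in sgNeg and 109, 106 and 97.8 with sgWDR77-1, also without overlap, at -0.52 (SE 0.11, adjusted p 0.0292). Both calls were lost without any 1 sgNeg library or sgWDR77-1 replicate 2, and that of PGAM1 also without replicate 3. The adjusted p was up to 0.132 for ENO2 and 0.196 for PGAM1. With sgPRMT5-2, PGAM1 and PGK1 were called slightly lower at -0.20 and -0.21 and ENO1 higher at 0.19. The first 2 calls were lost without sgNeg replicates 1 or 3 or any 1 library of sgPRMT5-2, with an adjusted p of up to 0.168. Both were also lost when all 15 libraries shared 1 fit, and PGAM1 with no filter on low counts. The ENO1 call was lost there (adjusted p 0.0826), under library totals (0.125) and with limma-trend (0.0852).

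At the pyruvate branch, LDHA and LDHB encode the subunits of lactate dehydrogenase. LDHA stood at 614, 608 and 715 CPM in sgNeg, 775, 775 and 896 with sgPRMT5-1, and 787, 765 and 753 with sgPRMT5-2. All PRMT5KO libraries were above sgNeg, by a log2 fold change of 0.28 (SE 0.07, adjusted p 0.0184), with an adjusted p of 0.0918 without sgNeg replicate 1 and 0.0850 without sgNeg replicate 2. With sgWDR77-1 LDHA was at 502, 428 and 391 CPM and with sgWDR77-2 at 749, 657 and 639. It was lower than sgNeg in all 3 sgWDR77-1 libraries, at -0.53 (SE 0.13, adjusted p 0.0471), and so was the only member called in opposite directions by different sgRNAs. That rests on weak calls. The call with sgWDR77-1 was lost in 8 of 14 alternatives (adjusted p up to 0.288), among them upper quartile factors, limma-trend, the replicate block and leaving out any 1 sgNeg library or sgWDR77-1 replicates 2 or 3. The call with sgPRMT5-1 was also lost in 8 of 14, whereas that with sgPRMT5-2 held in all.

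LDHB, the form that favours pyruvate, stood at 88.4, 83.7 and 92.1 CPM in sgNeg, 121, 120 and 111 with sgPRMT5-1, and 127, 117 and 129 with sgPRMT5-2. All PRMT5KO libraries were higher, by 0.44 (SE 0.07, adjusted p 0.00388). With sgWDR77-2, at 131, 115 and 110 CPM, LDHB was above sgNeg by 0.42 (SE 0.10, adjusted p 0.0200), a call lost without sgNeg replicate 1, sgNeg replicate 2 or sgWDR77-2 replicate 2 and under the replicate block (adjusted p up to 0.0715 over all alternatives).

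PDK3, a kinase that inhibits pyruvate dehydrogenase, stood at 104, 104 and 85.8 CPM in sgNeg, 85.4, 84.5 and 73.1 with sgPRMT5-1, and 70.6, 61.4 and 55.3 with sgPRMT5-2. The PRMT5KO libraries were lower by -0.48 on the log2 scale (SE 0.13, adjusted p 0.0231), with a narrow gap between sgNeg replicate 3 and sgPRMT5-1. Without sgNeg replicate 1 or 2 the adjusted p was 0.105. PDK1, a kinase of the same family and a HIF target, was called lower with sgPRMT5-2, from 51.5, 53.4 and 45.3 CPM to 36.8, 34.5 and 39.4, at -0.45 (SE 0.10, adjusted p 0.00137).

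The difference between the knockouts was tested in its own fit, without sgNeg and without a term for the sgRNA. In PRMT5KO against WDR77KO 12 of 39 members were called higher and 3 lower, where 7.99% of all genes tested were higher and 6.01% lower. The member median was 0.22 against 0.02 for all genes, and all 6 genes of lower glycolysis had a positive value. In the fits against sgNeg, the median of lower glycolysis was -0.44 with sgWDR77-1 but 0.04 with sgWDR77-2. It was 0.10 with sgPRMT5-1 and -0.004 with sgPRMT5-2. Without sgWDR77-1 replicate 1 the member median was 0.13, against 0.01 for all genes. Besides SLC2A3, the higher genes included SLC2A1, LDHA, BNIP3, ADM, PKM, VEGFA and HK1. SLC2A1 ranged from 559 to 626 CPM in PRMT5KO (median 576) and from 305 to 460 CPM in WDR77KO (median 443). The groups did not overlap, and the difference was 0.49 (SE 0.09, adjusted p 0.00302). LDHA ranged from 753 to 896 CPM (median 775) and from 391 to 749 CPM (median 571), again without overlap, with a difference of 0.53 (SE 0.13, adjusted p 0.0125). EPAS1, MXRA7 and ALDOC were lower in PRMT5KO, at -0.31, -1.17 and -0.40. The total of 15 fell to 7 without sgWDR77-1 replicate 2, and that of all genes from 1962 to 969. Among those not called without that library were ENO1, PKM, ADM, MXRA7 and ALDOC, and the last 2 were also lost without other libraries. HK2 lost its call in 14 of 20 alternatives, among them 3 other scalings, PGAM1 in 10 and PFKM in 8. SLC2A3, SLC2A1, LDHA, BNIP3, VEGFA, HK1 and EPAS1 held in all. Without sgWDR77-1 replicate 1, EGLN3 and PFKL were called lower, at -0.76 (SE 0.24, adjusted p 0.0494) and -0.37 (SE 0.09, adjusted p 0.0177).

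**Figure D4:**
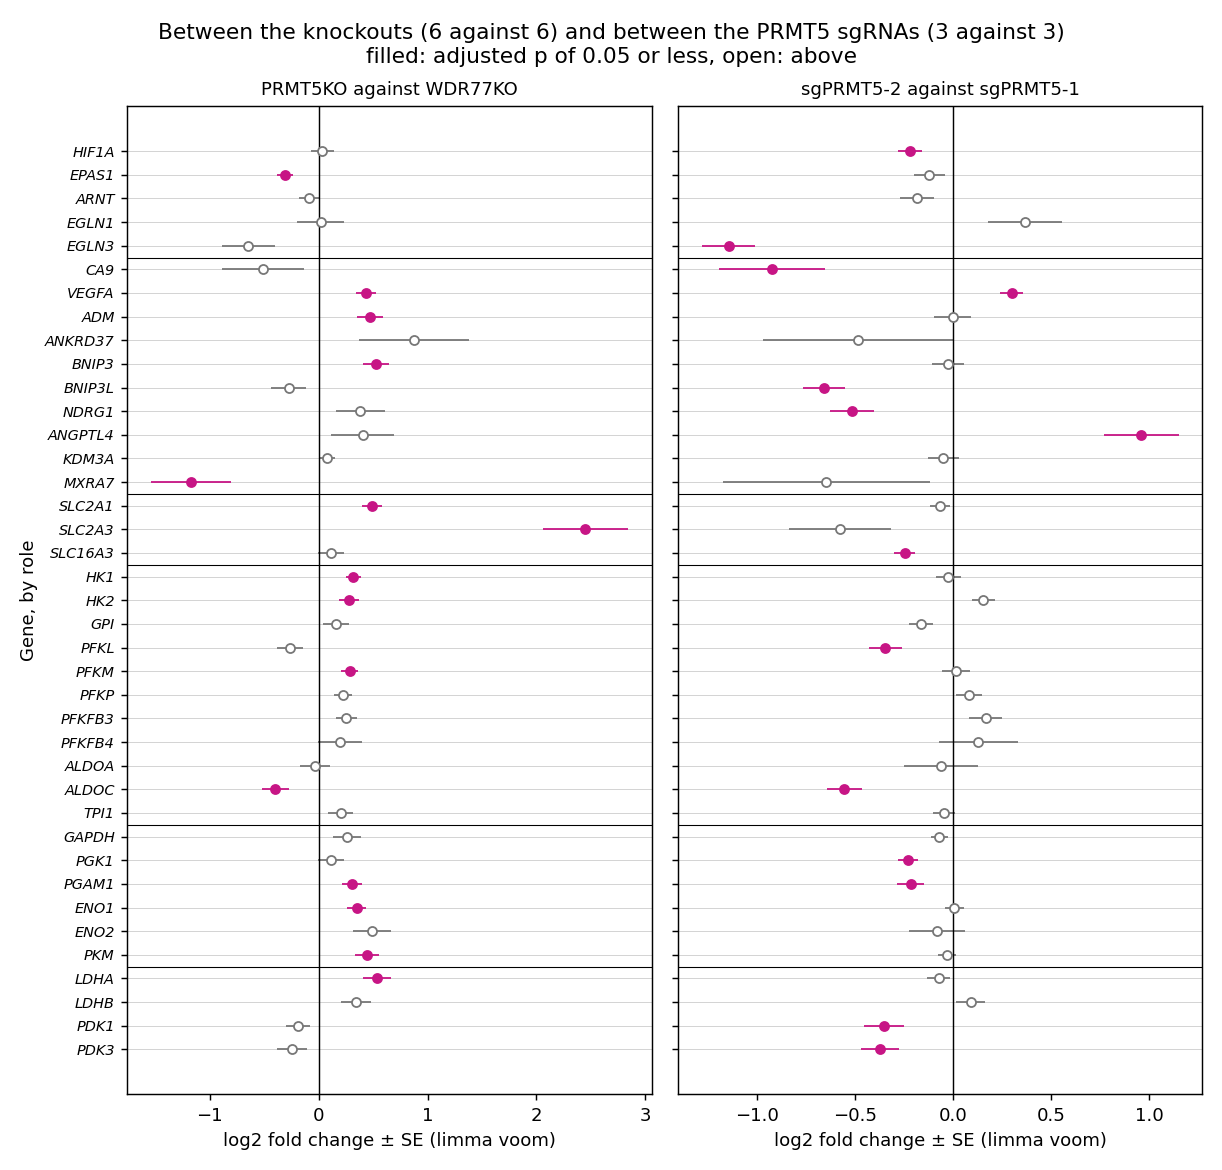
log2 fold change with SE of each tested member between PRMT5KO and WDR77KO (left, 6 against 6 libraries) and between sgPRMT5-2 and sgPRMT5-1 (right, 3 against 3), with filled points for adjusted p of at most 0.05. There are 15 filled points on the left, 12 of them above 0, and 14 on the right, 12 of them below 0.

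Between the PRMT5 sgRNAs, 2 members were higher and 12 lower with sgPRMT5-2, where 9.94% of all genes tested were higher and 9.31% lower. VEGFA and ANGPTL4 were the higher ones. The lower genes were EGLN3, CA9, BNIP3L, ALDOC, NDRG1, PDK3, PDK1, PFKL, SLC16A3, PGK1, HIF1A and PGAM1. Their differences ranged from -1.15 for EGLN3 to -0.22 for PGAM1 and HIF1A. The enzymes called higher in PRMT5KO, HK2, PFKP, TPI1, GAPDH, PKM, LDHA and LDHB, were not called between these sgRNAs, at -0.07 to 0.15. Without sgPRMT5-1 replicate 3 the number of members called was 22, and that of all genes went from 2690 to 4711. Leaving out any other library gave 10 to 12 members, and 1429 to 1681 of all genes. With all 15 libraries in 1 fit it was 4, and only EGLN3, BNIP3L, ALDOC and ANGPTL4 held there and in every other alternative. PRMT5 transcript itself differed by 0.23 (SE 0.11, adjusted p 0.146) between these sgRNAs. KRT5 was lower with sgPRMT5-2 by -2.26, and its part in the result was not tested.

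Between the WDR77 sgRNAs 0 members were called by limma voom, where 0.121% of all genes tested were called in either direction, but 19 members had an unadjusted p under 0.05, against 1758 of 14011 genes. Of these 19, 18 were higher with sgWDR77-2. The member median was 0.27 against 0.00 for all genes, and for lower glycolysis it was 0.53, with 6 of 6 genes at an unadjusted p under 0.05. Without sgWDR77-1 replicate 1, LDHA, PKM, TPI1, PGK1 and GAPDH were called higher with sgWDR77-2, at 0.71, 0.59, 0.45, 0.43 and 0.43. The share of all genes called was then 1.11%. The member median fell to 0.14 in that fit, against -0.01 for all genes, and the 6 genes of lower glycolysis ranged from 0.34 for ENO1 to 0.59 for PKM.

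The same library weighed on sgWDR77-1 against sgNeg. Without sgWDR77-1 replicate 1, 12 members were called in place of 6, with ANGPTL4 higher and 11 lower, and 7.01% of all genes. These 12 held the 6 called with it, and added BNIP3, HK1, PGK1, ENO1 and PKM among the lower ones. In that fit LDHA was at -0.64 (SE 0.09, adjusted p 0.000537), PGAM1 at -0.57, NDRG1 at -0.74, ADM at -0.66, ENO2 at -0.83 and SLC2A3 at -3.64. In turn, without any 1 of the sgNeg libraries only SLC2A3 was called, while all genes called went from 385 to 128, 141 and 56 without replicates 1, 2 and 3. Without sgWDR77-1 replicate 2 the number was 3, among which LDHA, PGAM1 and ENO2 were missing, and without replicate 3 it was 5, with 176 and 368 of all genes.

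The sum over 17 glycolytic enzyme genes was lowest with sgWDR77-1, then in sgNeg, and higher in the 3 other groups, which overlapped one another. This sum includes LDHA and LDHB but not the regulators PFKFB3 and PFKFB4. It was 12838 ± 1084 CPM in sgNeg, 15400 ± 1144 with sgPRMT5-1, 14737 ± 89.1 with sgPRMT5-2, 10285 ± 640.5 with sgWDR77-1 and 14587 ± 694 with sgWDR77-2. By library, sgNeg held 13219, 11614 and 13679 CPM and sgWDR77-1 held 9570, 10805 and 10481. All 9 libraries of the 3 other groups, at 14185 to 16676 CPM, were above sgNeg, and the 3 of sgWDR77-1 were below it. No p is given for this sum, since GAPDH, PKM and ENO1 make up most of it. In sgWDR77-1 reads outside features were 3.57%, 6.04% and 5.70%, and mitochondrial counts were 1.73%, 2.26% and 2.11%. In sgWDR77-2 these were 3.52% to 3.96% and 1.38% to 1.65%. The 3 endothelial markers also summed higher with sgWDR77-1, at 34.2, 31.3 and 36.1 CPM, against 22.9, 16.6 and 24.9 in sgNeg and 12.7 to 21.4 elsewhere. Most of this was CDH5, at 29.1 to 33.6 CPM with sgWDR77-1, while PECAM1 was at 0 in 10 libraries and at most 0.547 CPM. VWF went the other way, at 1.85 to 2.22 CPM with sgWDR77-1 against 2.47 to 3.56 CPM in sgNeg. The part of these measures in the result was not tested.

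**Figure D5:**
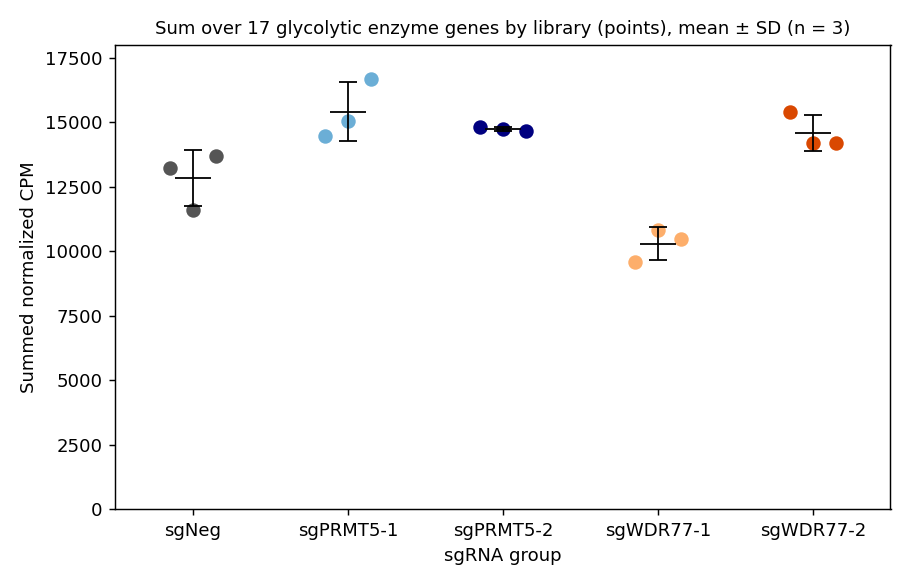
Summed normalized CPM of 17 glycolytic enzyme genes in each library (points) with the mean and SD of each group (n = 3), on an axis from 0. The sgWDR77-1 libraries lie at 9570 to 10805 CPM, below all others, and the sgPRMT5-1, sgPRMT5-2 and sgWDR77-2 libraries lie above all of sgNeg.

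HIF targets also varied among replicates of a group. For the 10 tested targets outside glycolysis and EGLN3, sgWDR77-2 replicate 3 was the highest of its group for 11 of 11. In sgPRMT5-1, replicate 2 was highest for 9, and in sgWDR77-1 replicate 3 for 8. In sgNeg, on which each fold change against the control rests, replicate 1 was highest for 8. The median ratio of the highest to the lowest library over these 11 genes was 1.63 in sgWDR77-2, against 1.18 over all 39 members. In sgPRMT5-2 the same ratios were 1.12 and 1.10, the smallest of the 5 groups.

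Genes of the pathway outside the 40 were taken from 4 lists. In PRMT5KO 8.73% of all genes were called higher and 8.3% lower, and in WDR77KO 0.838% and 2.55%, which is the background for the counts of these lists. At an unadjusted p under 0.05 it was 4722 of 14071 and 2274 of 14073 genes. Of other HIF regulators, 1 of 7 tested was higher and 0 lower in PRMT5KO. That was CREBBP, a coactivator of HIF, which rose by 0.44 (SE 0.12, adjusted p 0.0273) and was higher in 6 of 6 libraries. In WDR77KO 0 of 7 passed, with 2 at an unadjusted p under 0.05. Of other HIF targets, 2 of 17 were higher and 1 lower in PRMT5KO, near the shares of all genes, and 1 was higher and 1 lower in WDR77KO. STC2, a secreted glycoprotein, stood at 83.6, 83.7 and 112 CPM in sgNeg and at 126 to 207 CPM in PRMT5KO (median 177), without overlap. It rose by 0.85 (SE 0.16, adjusted p 0.00650) in PRMT5KO and by 0.56 (SE 0.15, adjusted p 0.0491) in WDR77KO, where 5 of 6 libraries were above sgNeg. DDIT4, an inhibitor of mTORC1, stood at 576, 487 and 475 CPM in sgNeg and at 200.4 to 358 CPM in WDR77KO (median 278), all lower. Its log2 fold change was -0.91 (SE 0.14, adjusted p 0.00139) in WDR77KO and -0.54 (SE 0.20, adjusted p 0.0719) in PRMT5KO. GBE1, the glycogen branching enzyme, rose by 0.40 and MXI1, an antagonist of MYC, changed by -0.48 in PRMT5KO, where 5 of 6 libraries were below sgNeg. MXI1 was named after its values were seen.

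Of 8 tested glycolysis isoforms and regulators, 3 were higher and 0 lower in PRMT5KO, against 8.73% and 8.3% of all genes. These were TIGAR, a phosphatase that restrains glycolysis, at 0.86 (SE 0.22, adjusted p 0.0206), BPGM, the bisphosphoglycerate mutase, at 0.66 (SE 0.16, adjusted p 0.0160), and the lactate transporter SLC16A1 at 0.46 (SE 0.10, adjusted p 0.00958). Each was higher in 6 of 6 PRMT5KO libraries than in any of sgNeg, which is nearly given for genes named by that call. The WDR77KO libraries also lay above sgNeg in each, against the same 3 control libraries. In WDR77KO 0 of the 8 passed, with 4 at an unadjusted p under 0.05, against 2274 of 14073 genes. Of the 11 genes for entry of pyruvate into mitochondria, 0 passed in PRMT5KO or WDR77KO, with 1 and 3 at an unadjusted p under 0.05.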

How the data were processed

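The read counts were deposited by the authors, who made them with STAR and HTSeq on hg38. The authors ran their own tests with DESeq2. An automatic check of the unit failed on the format of the tables, although the values of members are whole counts. DESeq2 and similar tools were therefore not used, and limma voom gave every fold change and adjusted p (R 4.3.3, limma 3.58.1). TMM factors were computed in the script with trims of 0.3 and 0.05. Genes with a mean normalized count of at least 3 were tested in each comparison, and p was adjusted by Benjamini-Hochberg over all genes tested, with a threshold of 0.05. Rows for reads without a feature, ambiguous or not unique made up 20.9% to 25.5% of each table and were left out. Lengths came from GENCODE 44. Alternatives were other scalings, other filters, limma-trend, 1 fit of all 15 libraries, a replicate block and leaving out each library. All 40 members were named. Of members called against sgNeg, those with the largest fold changes in each role were to be given with every library (at most 4 per role and pooled comparison), the other called ones by value and the uncalled ones by range. Of each list of other pathway genes, the 3 with the smallest adjusted p in PRMT5KO or WDR77KO were named where called. Members and lists were chosen with earlier results of these data known.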

Additional observations from a re-analysis of the deposited data

Results flagged for a closer look

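Single libraries far from the others of their group were looked for in 82 groups of 6 values, and 8 were found. Each group joined both sgRNAs of a knockout, and several of the 8 fell in the same library, so no rate by chance is given. In sgWDR77-1 replicate 1, HIF1A stood high at 767 CPM, and SLC16A3 and PFKL stood low at 284 and 91.3 CPM. In sgPRMT5-1 replicate 2, NDRG1 and ENO2 stood high at 754 and 27.5 CPM. In sgPRMT5-1 replicate 3, GAPDH, PKM and LDHA stood high at 5496, 3400.1 and 896 CPM. These libraries were kept.

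Members that differed in the direct test between PRMT5KO and WDR77KO were also picked out. On the log2 scale SLC2A3 differed by 2.45, LDHA by 0.53, BNIP3 by 0.53, SLC2A1 by 0.49, ADM by 0.47, PKM by 0.44, VEGFA by 0.43 and ENO1 by 0.35. HK1 differed by 0.32, PGAM1 by 0.31, PFKM by 0.28 and HK2 by 0.28. Of these, HK2 missed the threshold in 14 of 20 alternatives, PGAM1 in 10 and PFKM in 8, while ADM, PKM and ENO1 missed it in 1, without sgWDR77-1 replicate 2. EPAS1 differed by -0.31, ALDOC by -0.40 and MXRA7 by -1.17, of which MXRA7 missed the threshold in 11 and ALDOC in 8.

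Members that differed between sgPRMT5-2 and sgPRMT5-1, which target the same gene, were picked out in the same way. ANGPTL4 differed by 0.96 and VEGFA by 0.30. EGLN3 differed by -1.15, CA9 by -0.93, BNIP3L by -0.66, ALDOC by -0.56, NDRG1 by -0.52, PDK3 by -0.37, PDK1 by -0.35 and PFKL by -0.35. SLC16A3 differed by -0.25, PGK1 by -0.23, HIF1A by -0.22 and PGAM1 by -0.22. All but EGLN3, BNIP3L, ALDOC and ANGPTL4 missed the threshold with all 15 libraries in 1 fit.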

How the results depend on the processing

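The number of members called depended on the settings, and the cause was not tested. With all 15 libraries in 1 fit it went from 1 to 5 in WDR77KO, from 9 to 4 with sgPRMT5-1, from 25 to 16 with sgPRMT5-2 and from 6 to 12 with sgWDR77-1. In the same fit it went from 15 to 23 between PRMT5KO and WDR77KO, from 14 to 4 between the PRMT5 sgRNAs and from 0 to 12 between the WDR77 sgRNAs. Library totals gave 2 in WDR77KO, and no filter gave 8 between the WDR77 sgRNAs. All genes called in the 1 fit are counted further below. That count is given only where it moved by the larger factors. With sgPRMT5-1 (530 in the main fit) and sgPRMT5-2 (5693) it moved by a smaller factor than in any comparison given there, and its exact value is not given.

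Leaving out 1 library gave 6 to 17 members in PRMT5KO, 1 to 3 in WDR77KO, 0 to 7 with sgPRMT5-1, 20 to 27 with sgPRMT5-2, 1 to 12 with sgWDR77-1 and 2 to 4 with sgWDR77-2. It gave 7 to 19 between PRMT5KO and WDR77KO, 10 to 22 between the PRMT5 sgRNAs and 0 to 5 between the WDR77 sgRNAs. For all genes, PRMT5KO went from 2397 to between 483 and 3562, WDR77KO from 477 to 199 to 677, sgPRMT5-1 from 530 to 211 to 510 and sgPRMT5-2 from 5693 to 4675 to 5668. In the same way sgWDR77-1 went from 385 to 56 to 1003 and sgWDR77-2 from 698 to 293 to 661. Between PRMT5KO and WDR77KO the range was 876 to 3178, from 1962, between the PRMT5 sgRNAs 1429 to 4711, from 2690, and between the WDR77 sgRNAs 0 to 156, from 17.

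With the replicate number as a block, 11 members were called in PRMT5KO, 1 in WDR77KO, 12 with sgPRMT5-1, 24 with sgPRMT5-2, 5 with sgWDR77-1 and 2 with sgWDR77-2. The block gave 11 between PRMT5KO and WDR77KO, 15 between the PRMT5 sgRNAs and 1 between the WDR77 sgRNAs. Libraries of the same number correlated at -0.46 to 0.38, and 6 of 15 libraries correlated best with their own number, so no paired design was used. The block moved all genes called from 2397 to 1701 in PRMT5KO, from 477 to 333 in WDR77KO, from 530 to 1427 with sgPRMT5-1 and from 5693 to 5638 with sgPRMT5-2. It moved them from 385 to 414 with sgWDR77-1 and from 698 to 369 with sgWDR77-2. Between PRMT5KO and WDR77KO it gave 1491, between the PRMT5 sgRNAs 2820 and between the WDR77 sgRNAs 18.

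All genes called in the 1 fit went from 477 to 1187 in WDR77KO, from 385 to 1333 with sgWDR77-1, from 1962 to 3813 between PRMT5KO and WDR77KO, from 2690 to 1059 between the PRMT5 sgRNAs and from 17 to 339 between the WDR77 sgRNAs. No filter gave 987 with sgPRMT5-1 and 127 between the WDR77 sgRNAs, where library totals gave 11. Library totals moved the share of higher calls from 51.3% to 34.0% in PRMT5KO, from 40.4% to 27.8% with sgPRMT5-1, from 52.0% to 39.5% with sgPRMT5-2 and from 57.1% to 37.7% between PRMT5KO and WDR77KO. Of 86 called pairs of gene and comparison, 36 held in every alternative, 50 missed the threshold in at least 1 and 0 reversed.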
